A study of Drosophila melanogaster with 2 samples.

Results

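Of the 4117 reproducible peaks of the Drosophila melanogaster protein CG10654, 571 (13.9%) had their summit inside an intron and close to, but outside, a promoter. A peak was counted here when its summit lay inside an annotated gene, in no exon of any transcript, and more than 500 and at most 2000 bp from the nearest transcription start site (TSS) on either strand. The gene whose span holds the summit is called the host gene. Where a summit lay in several genes, the named host is the one with the nearest TSS. The peaks come from the authors' list on the dm6 genome that passed the irreproducible discovery rate (IDR). That procedure compares the ranks of candidates across replicates. Of 27219 candidates called in the pooled reads of both replicates, 4117 had a signal at or above the lowest in this list. The list thus coincided in number with a cut on pooled signal, and a place in it does not show rank agreement for a single peak. The IDR list and the position chose the members, so the count is a description.

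The study mapped the DNA binding of CG10654 by chromatin immunoprecipitation sequencing (ChIP-seq) in whole embryos of both sexes aged 0 to 24 h. The embryos came from a transgenic line in which CG10654 carries green fluorescent protein at its C-terminus, and an anti-GFP antibody was used on chromatin sonicated to 200 to 800 bp. There were 2 biological replicates of this 1 group, so no conditions can be compared, and each value averages over all cell types and ages of embryogenesis. The labels do not give the regulatory sequence that drives the transgene. The authors listed 23253 candidate peaks in replicate 1, 30000 in replicate 2 and 27219 in the pooled reads, and the number of reads behind them is unknown. Each peak has a signal value, the authors' enrichment on their own scale, which is ranked here only within a list. Where values of the replicate and pooled lists are printed side by side or as a ratio, each list keeps its own scale.

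Introns of flies often hold enhancers, the sequences through which transcription factors set where and when a gene is read. First introns lie just behind the promoter, and many long genes have further promoters inside them, so that sequence upstream of an internal TSS is also intronic. A peak in such a place can belong to an enhancer, to an annotated alternative promoter or to a neighbouring gene nested in the intron. CG10654 itself is an uncharacterised protein, and none of the consensus words searched here is named for it.

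The summit and 50 bp on either side are printed for 6 of the strongest members, to show the sequence under the peaks. They are reference sequence of the dm6 assembly from RefSeq, 5′ to 3′, and the capitals mark the longest run of A and T only.
ush, chr2L:481041-481141, plus strand: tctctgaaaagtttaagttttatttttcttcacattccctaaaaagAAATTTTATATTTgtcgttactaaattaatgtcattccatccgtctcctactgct
CG11050, chr2L:6612664-6612764, plus strand: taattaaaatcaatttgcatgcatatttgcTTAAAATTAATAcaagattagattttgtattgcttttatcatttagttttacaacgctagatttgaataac
Lk6, chr3R:11760987-11761087, plus strand: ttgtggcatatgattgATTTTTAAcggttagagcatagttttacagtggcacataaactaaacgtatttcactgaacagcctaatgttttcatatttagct
CG32772, chrX:4910306-4910406, plus strand: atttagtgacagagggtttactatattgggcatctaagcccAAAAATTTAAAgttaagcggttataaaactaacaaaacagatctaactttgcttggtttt
Trl, chr3L:14759467-14759567, plus strand: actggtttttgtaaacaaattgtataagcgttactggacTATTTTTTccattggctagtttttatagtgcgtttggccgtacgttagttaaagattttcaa
cno, chr3R:5215480-5215580, plus strand: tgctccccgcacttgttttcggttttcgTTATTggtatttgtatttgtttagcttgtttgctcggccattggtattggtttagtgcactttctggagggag
The window at ush was 28.7% G and C and held a run of 13 A or T bases. At CG11050 the window was 21.8% G and C with a run of 12. The strong peak at cno differed from these, with 43.6% G and C and no A/T run longer than 5.
Words of 8 bases were ranked on the IDR peaks that are not members, and the word with the largest excess at their summits was ATTTAAAA (TTTTAAAT on the other strand). The members Tis11 and Dok, which encode an RNA-binding zinc finger protein and a signalling adaptor, show this word in capitals. The nearest TSS to the Tis11 summit, 1372 bp away, is annotated to another gene.
Tis11, chrX:12666569-12666669, plus strand: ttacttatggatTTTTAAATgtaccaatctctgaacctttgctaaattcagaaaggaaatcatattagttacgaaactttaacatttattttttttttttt
Dok, chrX:7324970-7325070, plus strand: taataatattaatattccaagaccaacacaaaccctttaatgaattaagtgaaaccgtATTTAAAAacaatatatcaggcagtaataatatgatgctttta
The members of highest G and C content, at elav (59.4%) and at the ecdysone-inducible nuclear receptor gene Hr4 (57.4%), are shown for contrast, with the longest A/T run in capitals. They were chosen after their values were seen.
elav, chrX:522601-522701, plus strand: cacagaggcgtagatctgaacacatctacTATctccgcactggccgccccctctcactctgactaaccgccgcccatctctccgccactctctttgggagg
Hr4, chrX:1953047-1953147, plus strand: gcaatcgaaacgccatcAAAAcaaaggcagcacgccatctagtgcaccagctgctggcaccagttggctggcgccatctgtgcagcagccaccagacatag

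Members spanned most of the range of signal in the IDR list, whose highest value was 2484. The lowest pooled signal was 99.3, the median 169 and the highest 2032, and the middle 50% of members lay between 126 and 245. The median was 173 for promoter IDR peaks (within 500 bp of a TSS, n = 2164), 151 for deep intronic IDR peaks (over 2000 bp from any TSS, n = 783) and 167 for intergenic IDR peaks at the same distance from a TSS (n = 201). Members made up 5 of the 20 strongest IDR peaks, 14 of the strongest 100 and 140 of the strongest 1000, against 13.9% of the whole list. The weakest members lay at CG8420 (99.3) and at Oda, which encodes ornithine decarboxylase antizyme (99.6), and these values sit at the lower edge of the IDR list.

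The strongest member lay in an intron of ush, on chr2L:480895-481285, and its signal was 1375 in replicate 1, 671 in replicate 2 and 2032 in the pooled data. ush encodes a zinc finger cofactor of GATA factors. The nearest TSS was not that of ush but of cbt, a zinc finger transcription factor gene, and the summit lay 1403 bp upstream of it. The second, in CG11050 on chr2L:6612497-6612894, had 1202, 581 and 1778 and sat in an intron of only 140 bp. Lk6, which encodes a kinase acting on the translation factor eIF4E, carried the third on chr3R:11760881-11761221, with 914, 519 and 1431. Its summit lay 958 bp upstream of an internal TSS of the same gene, in an intron of 6991 bp. These 3 members had the highest values among members in both replicates.

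The next sites were CG32772 (729 in replicate 1, 432 in replicate 2, 1163 pooled) and HmgZ (762, 344 and 1104). HmgZ encodes an HMG-box chromatin protein, and its summit also lies within the span of the related gene HmgD. Trl, which encodes the GAGA factor, had 684, 303 and 993. Beyond these came CG9663 (970 pooled), cno (911), NFAT (811) and Adf1 (793). cno encodes a linker of adherens junctions to actin, and NFAT and Adf1 encode transcription factors. CG3726, CG31635, CG9837 and LPCAT, the last a lysophospholipid acyltransferase gene, had 759, 737, 733 and 693. The remaining 6 of the 20 strongest ran from 671 to 606. They were for, which encodes a cGMP-dependent protein kinase, the translational repressor gene brat, the forkhead gene CHES-1-like, CG4496, chif, whose product activates the Cdc7 kinase, and mub, which encodes an RNA-binding protein. At CHES-1-like the nearest TSS was that of lncRNA:CR43287. All 20 had a summit within 100 bp in each replicate.

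A summit within 100 bp was present in both replicates for 552 of the 571 members (96.7%, Wilson 95% interval 94.9 to 97.9%) and for 96.1% of the other IDR peaks. Replicate 1 alone held 14 members and replicate 2 alone held 5. The IDR list was made from both replicates, so this share does not check the sites independently. The median gap between matched summits was 21.0 bp. Replicate 1 signal was a median of 1.90 times replicate 2 signal, with a middle 50% of 1.59 to 2.25, and each list has its own scale. Spearman's rho between the replicates was 0.779 over the 552 matched members. It was 0.782 over the 276 with higher pooled signal and 0.0551 over the other 276, whose pooled signal spans a narrow band. The points share the libraries and the pooled signal that selected them.

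**Figure D1:**
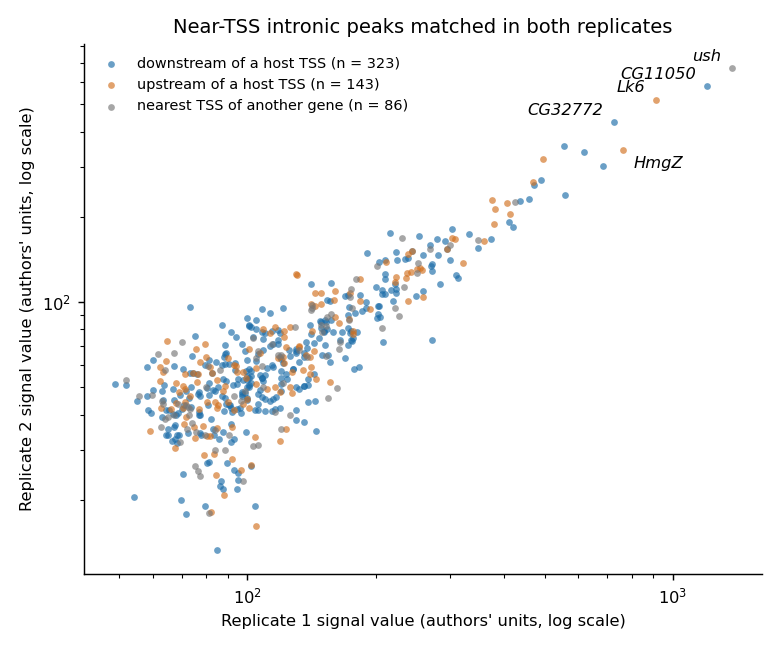
Signal of the 552 members matched in both replicates, replicate 1 on the horizontal and replicate 2 on the vertical axis (authors' units, log scales). Points are peaks, coloured by the position of the nearest TSS. The 5 strongest members are named and stand at the upper right, while the weaker members form a broad cloud.

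Applied to the 4117 strongest candidates of each replicate instead of the IDR list, the same positional rule found 570 peaks in replicate 1 and 596 in replicate 2. Of these, 433 had matching summits, which is 76.0% of the first list and 72.7% of the second. The positions described below are given for these lists too, since they were called from separate libraries.

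Among pooled candidates, 3712 met the positional rule and 571 of them (15.4%) reached the lowest signal of the IDR list, against 15.1% of all pooled candidates. Candidates that reached it are counted here as IDR peaks, so these shares describe pooled signal and not reproducibility. The share of candidates that were IDR peaks was 26.4% at promoters, 10.6% deep in introns and 11.1% in intergenic sequence at the same distance from a TSS. Near-TSS introns thus lay close to the average of all candidates. Intronic sequence that meets the rule amounts to 11.4 Mb, 8.56% of the 6 chromosome arms. It held 49.9 members per Mb, compared with 119 IDR peaks per Mb in promoter windows, 18.9 in deep introns, 27.2 in near-TSS intergenic sequence and 30.8 over the arms as a whole.

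The nearest TSS belonged to the host gene for 84.9% of members. For 336 members (58.8%) it was a host TSS from which the summit lay downstream, and for 149 (26.1%) a host TSS from which the summit lay upstream, which is possible where a gene has an internal promoter. For the other 86 (15.1%) it was the TSS of another gene, and for 82 of these that TSS lay within the span of the host. The intronic sequence itself divides differently, with 54.6%, 16.6% and 28.9% in these kinds of position. The density was therefore 53.8 members per Mb downstream of a host TSS, 78.6 upstream of a host TSS and 26.0 where another gene was nearest. The replicate lists gave the same order, with 54.3, 80.7 and 23.6 per Mb in replicate 1 and 56.2, 80.7 and 27.9 in replicate 2.

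Density was highest beside the promoter window. In the 250 bp that adjoin the promoter window it was 87.9 per Mb upstream (78 members) and 64.0 downstream (89 members). In the outermost 250 bp it was 42.2 upstream (22 members) and 37.4 downstream (39 members). In replicate 1 the values were 84.5 and 61.8 near the promoter window and 38.4 on both sides at the outer edge. In replicate 2 they were 83.4 and 68.3 near it, and 53.7 and 33.6 at the outer edge. The listed intervals had a median and an upper quartile width of 390 bp, and many members shared exactly this width. It may therefore not measure the extent of binding. A listed interval with its summit beside the promoter window can reach into that window. Spearman's rho between signal and distance was 0.00528 over the 571 members.

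**Figure D2:**
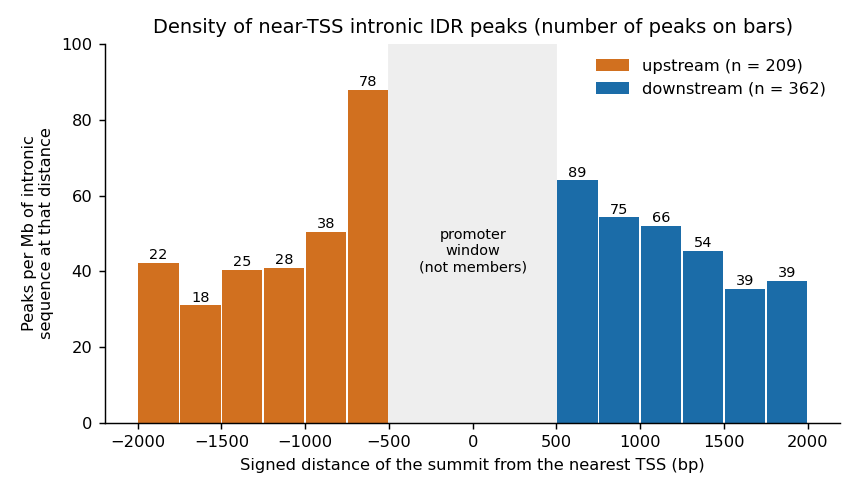
Members per Mb of intronic sequence (vertical axis) in 250 bp steps of signed distance from the nearest TSS (horizontal axis, bp), with the number of members on each bar. The bars next to the shaded promoter window reach 87.9 upstream and 64.0 downstream, and the outer bars 42.2 and 37.4.

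The limits of the rule cut through a continuous range. Just inside the inner limit were CG2201 (503 bp, signal 142) and dom, which encodes a chromatin remodeller (503 bp, 106). Just outside it were lola (494 bp, 241) and Dif, which encodes an NF-kappaB factor (493 bp from lncRNA:CR44409, 490). At the outer limit lncRNA:CR44320 (2000 bp, 342) and CG1677 (1997 bp, 100.5) were inside, and the kinase gene msn (2006 bp, 202) and CG43658 (2007 bp, 155) were outside.

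Most members lay in a first intron. The summit was in intron 1 of at least 1 host transcript for 470 members (82.3%, interval 79.0 to 85.2%), while 64.4% of near-TSS intronic positions and 60.3% of deep intronic IDR peaks were. The share was 81.9% in the replicate 1 list and 83.1% in the replicate 2 list. By position it was 94.0% of members downstream of a host TSS, where 77.6% of the sequence is intron 1. It was 72.5% upstream of a host TSS, where the sequence gives 63.9%, and 53.5% where another gene was nearest, where it gives 39.8%. In each kind of position the share was thus higher among members than in the sequence. The introns had a median length of 4845 bp, close to the 4657 bp of near-TSS intronic positions, with a range from 60 to 73902 bp. The summit lay a median of 902 bp from the 5′ splice site and 3093 bp from the 3′ splice site.

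A minority of the start sites next to members carried an IDR peak of their own. The nearest TSS had an IDR summit within 500 bp for 126 members (22.1%, interval 18.9 to 25.6%), compared with 11.6% of near-TSS intronic positions. For 232 members that TSS had only a weaker pooled candidate, and for 213 it had none. The share was 26.8% downstream of a host TSS, 14.8% upstream of one and 16.3% next to another gene. Split into 4 groups of near-equal size and falling signal, members had shares of 27.3%, 29.4%, 14.8% and 16.8%. Of the 3 strongest members, that at ush had an IDR summit at its nearest TSS, that of cbt, and those at CG11050 and Lk6 had none.

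Some members lay close to other IDR peaks. Another IDR summit lay within 1000 bp of 111 members (19.4%) and of 14.5% of the other IDR peaks, and the median distance to the next IDR summit was 2964 bp against 5616 bp. The smallest distance was 200 bp for members and 199 bp for the others, and the chromatin was sonicated to 200 to 800 bp. Whether summits this close are separate sites was not tested. Each arm except the small chromosome 4 held many members. Among the large arms density was lowest on 2L (40.1 per Mb) and highest on X (59.5 per Mb, 131 members), with 2R, 3L and 3R at 50.6, 47.6 and 53.2. The replicate lists had 37.7 and 43.5 per Mb on 2L and 60.4 and 62.7 on X. Chromosome 4 held 1 member in 0.128 Mb of such sequence.

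The sequence at the summits was rich in A and T. The window of 101 bp around the summit had a median of 30.7% G and C (middle 50% 26.7 to 36.1%), and a flank of equal width, centred 300 bp to one side, had 43.6%. In 472 members (82.7%) the summit window was the lower. Flanks were placed without regard to annotation, so some lie outside the intron, as at CG11050 with its intron of 140 bp. The difference between summit and flank thus partly compares intronic with other sequence. Near-TSS intronic positions had a median of 39.6%. Pooled candidates at such positions that were not IDR peaks (n = 3141), all of lower signal, had 37.6% at the summit and 40.6% beside it. Values at deep intronic IDR peaks were 31.7% and 43.6%, and at promoter IDR peaks 32.7% and 44.6%, so low G and C at the summit was shared with the other IDR peaks. In the replicate lists the summit windows had 30.7% and 31.7%, with 43.6% beside them in both. Spearman's rho between signal and this composition was -0.0604 over the 571 members. The longest run of A and T had a median of 10 bp at the summit and 8 bp both beside it and over near-TSS intronic positions. Repeats masked in the reference covered most of the window in 65 members (11.4%).

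**Figure D3:**
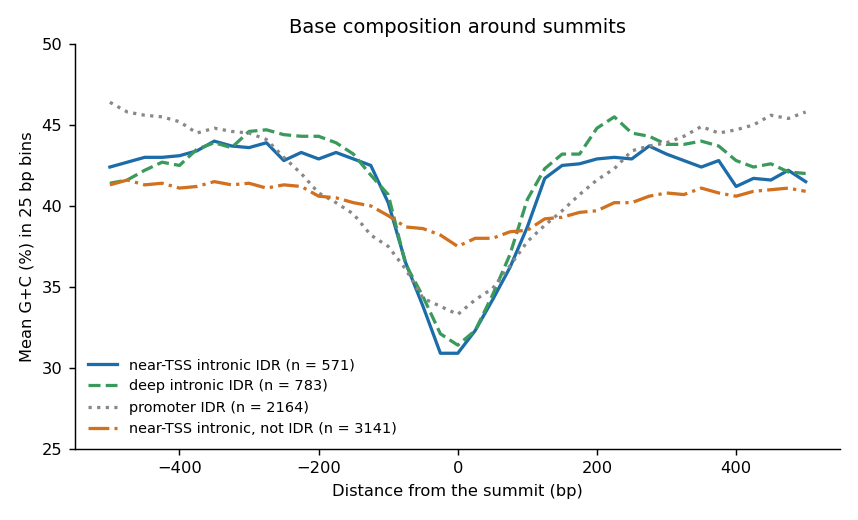
Mean G and C content (vertical axis, % in 25 bp bins) against the distance from the summit (horizontal axis, bp) for 571 members, 783 deep intronic and 2164 promoter IDR peaks and 3141 near-TSS intronic candidates outside the IDR list. The IDR sets dip within about 100 bp of the summit, and the weaker candidates have a shallow dip.

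The words in excess at the summits were made of A and T. ATTTAAAA was present in 44 member windows (7.71%, interval 5.79 to 10.2%), in 3.15% of their flank windows, in 6.63% of other IDR peaks and in 3.08% of near-TSS intronic positions. At least 1 of the 10 leading words, all of A and T only, was in 36.4% of members, 14.5% of flanks, 36.6% of other IDR peaks and 20.8% of positions. These words overlap in sequence and follow the base composition, so they are not separate observations. The TATA-box word TATAAAA was in 9.98% of member windows, 2.80% of flanks and 5.59% of positions. The homeodomain word TAATTA was in 9.81%, 5.60% and 8.23%.

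Of the 15 consensus words with more G and C than A and T, 12 were in fewer member windows at the summit than beside it, 2 in as many and 1 in more. The GAGA element GAGAGAG was in 0.701% of member windows and 6.13% of flanks, and 1.60% of near-TSS intronic positions held it. The SMAD word GCCGNCG was in 0.175% and 5.08%, with 2.36% of positions, and CCACCC in 1.23% and 6.48%, with 3.89%. Flanks of members thus held these 3 words more often, and summits less often, than the sequence as a whole. They are examples, and not all of the 15 words were more frequent in flanks than in the sequence as a whole. Shares of such words also follow the base composition of the windows, so they are not separate observations. 3 words known from fly promoters were less frequent in members than at promoter IDR peaks. The DNA replication-related element TATCGATA was in 0.175% of member windows and 3.37% of promoter IDR peaks, CATCNCTA in 0.525% and 3.33%, and CGATA in 9.98% and 22.0%. CGATA was in 11.4% of deep intronic IDR peaks and 11.2% of near-TSS intronic positions. TATCGATA was in 0.128% and 0.207% of these, and CATCNCTA in 0.766% and 0.526%. The member shares of these 2 words rest on 1 and 3 windows. All 3 words were thus about as frequent in members as in intronic sequence at that distance. The TATA-box word, in contrast, was in 9.66% of promoter IDR peaks, close to its share in members. Both strands were searched, and a match or its absence describes the letters of the window only.

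The 571 members had 473 named hosts, of which 404 held 1 member, 50 held 2 and 19 held 3 or more. Each summit was counted separately, also where the next in the same host lay only 200 bp away. Protein-coding hosts accounted for 552 members, non-coding RNA genes for 18 and a pseudogene for 1. In 56 cases (9.81%) the summit lay within 2 or more genes, which brings the genes holding a member summit to 513. That is 2.82% of the 18164 annotated genes and 6.05% of the 8486 genes that have any near-TSS intronic sequence. Hosts were long, with a median of 14032 bp against 3821 bp for genes that have such sequence. An IDR summit also lay within 500 bp of a TSS of 194 named hosts (41.0%), compared with 22.8% of genes with such sequence. A deep intronic IDR summit lay in 125 hosts (26.4%), for which the share over all such genes was not computed. Long genes have more places for a summit, and neither share was set against genes of like length.

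The spans of CG1677 and of lncRNA:CR44357 held 9 member summits each, more than any other gene, and those at Dok and CBP were 2 of them. CG1677 was the named host of the other 7, with pooled signals from 100.5 to 374.5 over 44311 bp of an intron of 73902 bp. Their nearest TSSs belonged to brk, unc-119, CBP and CG42780. brk encodes a repressor of BMP target genes, and its members lay 761 and 1997 bp upstream of its TSS, with signals of 286 and 100.5. shn held 5 members (103 to 320) beside 6 deep intronic IDR peaks. The kinase gene Tlk also held 5 (105 to 258). NFAT held 4 within 3728 bp, with 811, 357, 185 and 174, all upstream of a TSS of NFAT. CG10543 held 4 within 2643 bp (106 to 288), of which the weakest had no matching summit in replicate 1. Named hosts of 3 members were ush, Trl, CHES-1-like, Btk, CG42258, Kank, Svil, Dys, tou, Acsl, Shrm, Doa, Rgl and kis. Members in 1 host share a gene and often an intron, and are not independent of each other. Some summits were close, such as 211 bp apart in NFAT, and in CG10543 a summit lay 201 bp from another IDR summit.

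Hosts were then counted in 27 lists of genes by function. The share is that of list genes with near-TSS intronic sequence that hold a member, beside 6.05% of all such genes. A gene with more such sequence has more places for a summit, so the density of members per Mb of that sequence is given too, beside 49.9 for all genes. The lists are small, and the densities rest on few peaks. A host is a gene whose span holds the summit, and for 23 of the 87 list genes that are hosts, the nearest TSS to the strongest member belonged to another gene. Such peaks are named below with that gene.

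Among genes of the EGF and FGF receptor pathways, 8 of 25 (32.0%) held a member, with 113 members per Mb. The strongest lay in drk, which encodes an adaptor of activated receptors, nearest to mars (222 in replicate 1, 95.3 in replicate 2, 317 pooled). ths, an FGF ligand gene, had 204, 96.7 and 307. Krn, an EGF receptor ligand gene, shares the nearest TSS with Ndfip and had 121, 95.3 and 218. The list's hosts thus included ligands and intracellular components, 6 of the 8 had a member nearest to their own TSS, and each replicate list also gave 8 hosts.

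Of the BMP and activin pathway, 5 of 15 genes (33.3%) held 10 members, 206 per Mb. The highest was at Mad, which encodes a Smad protein of the pathway (302, 168 and 469), then shn, a zinc finger partner of Mad (220, 101 and 320). The strongest in the receptor gene wit was nearest to CG32259 (173, 86.6 and 252). shn accounts for 5 of the 10 members.

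The JNK and stress kinase list also had 5 of 15, at 146 per Mb. Mekk1, a kinase gene, had 308, 167 and 480. The JNK phosphatase gene puc, with lncRNA:CR44331 nearest, had 103, 75.1 and 173. Mnt, which had 99.4, 54.1 and 154, is counted in this list although its product is a partner of Max and not a kinase. Only 3 genes of that list held a peak in the replicate 2 list, against 5 in replicate 1.

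In the Wnt pathway 5 of 21 genes (23.8%) were hosts, at 70.2 per Mb, and 2 of them had a member nearest to their own TSS. The kinase gene sgg had a pooled signal of 184, the ligand gene Wnt4 had 132 (nearest CG31909) and the receptor gene fz 119 (nearest lncRNA:CR45025). The replicate lists had 4 and 3 hosts. Hedgehog hosts were 3 of 12, at 102 per Mb. They were the co-receptor gene boi (187), the receptor gene ptc (186, nearest lncRNA:CR44281) and ttv (180, nearest LamC), which encodes a heparan sulphate polymerase.

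JAK-STAT hosts were 2 of 10, at 64.7 per Mb, Stat92E (312) and the inhibitor gene Socs36E (126). The replicate lists had 3 and 1 JAK-STAT hosts. Insulin and TOR hosts were 3 of 22, at 71.1 per Mb, namely Lk6, the receptor gene InR (571) and ImpL2 (458), whose product binds insulin-like peptides. Hippo hosts were 2 of 14, at 87.7 per Mb, dco (246) and mats (102), with 2 and 1 in the replicate lists. The Notch pathway had 1 of 15, at 23.7 per Mb, the ubiquitin ligase gene neur (281).

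Of cytoskeleton genes 11 of 37 (29.7%) were hosts, at 103 members per Mb, and each of the 11 had a member nearest to its own TSS. The replicate lists had 11 and 9 hosts. Dhc64C, the cytoplasmic dynein heavy chain gene, had 244 in replicate 1, 152 in replicate 2 and 397 pooled. The cofilin gene tsr had 235, 142 and 373, and Moe, whose product links actin to the membrane, had 204, 139 and 341.

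For several lists the share lay above 6.05% while the density was near or below that of all genes. Small GTPases and their regulators had 6 of 31 (19.4%), at 53.6 per Mb, led by RhoGAP18B (256), RhoGEF64C (231, nearest CG13713) and Rab11 (186). RNA-binding and splicing genes had 8 of 35 (22.9%), at 48.8 per Mb. The strongest there were brat (639), mub (606) and the translational repressor gene pum (275, nearest lncRNA:CR45196).

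Ecdysone response genes had 4 of 22 (18.2%), at 52.4 per Mb. Besides ImpL2 these included the receptor gene EcR (238, nearest a tRNA gene) and br (208, nearest Mur2B), whose peak had no matching summit in replicate 2. Neural and muscle fate factor genes had 6 of 39 (15.4%), at 44.6 per Mb, including tai (213), elav (190) and jumu (152). Circadian genes had 2 of 14 (14.3%), dco and sgg, at 42.7 per Mb. Adhesion and axon guidance genes had 5 of 44 (11.4%), at 27.6 per Mb, led by NetB (318, nearest hog), Ten-a (256) and fra (242, nearest CG33752).

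Lipid and sugar metabolism hosts were 4 of 24 (16.7%), at 84.6 per Mb, with the triglyceride lipase gene bmm (436), the lipid droplet gene Lsd-2 (308) and SREBP (154). Chromatin and Polycomb hosts were 4 of 29 (13.8%), with ph-p (251), kis (120, nearest lncRNA:CR44218) and brm (116, nearest CG17028). Each replicate list gave 3 hosts, and 2 of the 4 had a member nearest to their own TSS. Genes of this list have little near-TSS intronic sequence. The 6 members, 3 of them in kis, lie in 0.0282 Mb, which gives 213 per Mb. The insulator list likewise had 1 host of 16 (6.25%), Trl, whose 3 members in 0.0121 Mb give 248 per Mb.

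The remaining lists had shares at or below 6.05%. Segmentation and patterning factor genes had 2 of 36 (5.56%), Antp (187, nearest lncRNA:CR43252) and Abd-B (154), at 21.6 members per Mb. The replicate lists had 2 and 1 of these hosts. Neuronal channel and synapse genes had 2 of 36, dlg1 (134) and Shaw (107), at 15.7 per Mb. Immune genes had 1 of 17, PGRP-LB (204), at 41.2 per Mb. Cell cycle genes had 1 of 26, CycE (249), at 34.0 per Mb, and 3 hosts in the replicate 2 list. Cuticle protein genes had 1 of 27, Cpr73D (113, nearest Ogdh), at 29.3 per Mb, and 0 hosts in the replicate 1 list. No member lay in the 20 cytosolic ribosomal protein genes that have near-TSS intronic sequence, which allows a share of up to 15%, or in 108 such chemosensory receptor genes, which allows up to 2.78%. The ribosomal protein genes have 0.00570 Mb of such sequence in all, and the chemosensory receptor genes 0.0395 Mb. At 49.9 members per Mb few members would fall in either, so their absence says little. MicroRNA genes have none, and 0 of 260 held a member.

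**Figure D4:**
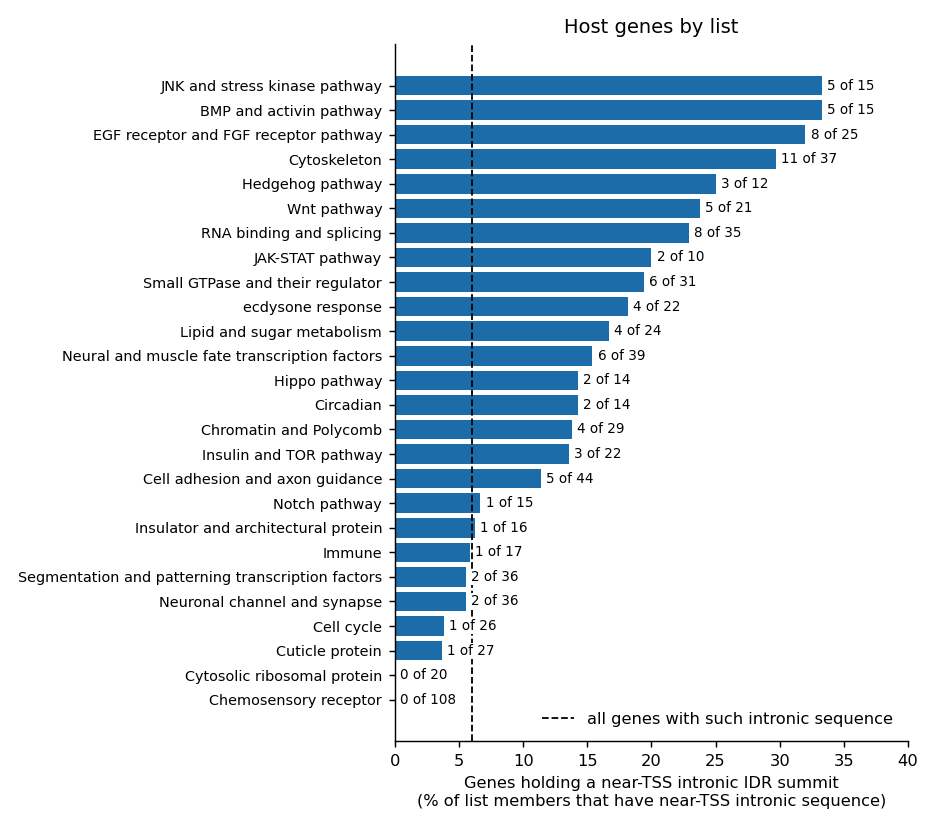
Share of list genes holding a member (horizontal axis, % of the genes that have near-TSS intronic sequence), with the counts beside each bar and 1 bar per list. The dashed line marks 6.05%, the share over all such genes; the JNK, BMP, EGF and FGF receptor and cytoskeleton lists reach 29.7 to 33.3%.

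CG10654, the gene of the tagged protein, lies on the minus strand of chr3L:12505374-12507840 and held no member and 0 IDR summits. The nearest IDR summit was 1166 bp away, at a promoter, with a signal of 264.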

How the data were processed

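The authors deposited narrowPeak lists for 2 biological replicates of 1 group, for their pooled reads, and for the peaks passing IDR, on dm6 and dm3. The dm3 lists were not used here. The deposited signal value is the authors' enrichment per peak, and the authors' −log10 q value was not used for ranking. The summit offset from each peak start, an integer, is also the authors' own. The depth in reads is unknown, and for the aligner, peak caller and their releases the entry is: not given in the sources used here. Lists held 0 per-sample columns of no sample.

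Summits were placed on the Ensembl release 115 annotation (FlyBase 6.54) without transposable elements, and sequence came from the RefSeq dm6 genome. Sequence meeting the rule was measured on a grid of 100 bp. Scripts used Python 3.11.15, numpy 2.4.6, pandas 2.3.3 and scipy 1.17.1, and were tested on simulated data. Peaks are not replicates, so no test was run over peaks or genes; Wilson 95% intervals and limits from a count of 0 cover counting error only. The 27 gene lists, of whose 680 entries 14 matched no gene, the 34 consensus words, the members and the alternatives were chosen with earlier results of these data known. Named genes are the hosts or nearest genes of the 20 strongest members, hosts of 3 or more members, up to 3 strongest hosts per list, the 2 peaks on each side of each distance limit, the 2 weakest members, and CG10654. Tis11 and Dok are members holding the leading word, Hr4 was chosen after its values were seen for its high G and C, and genes named as nearest come with a listed host. The lists per replicate, and some comparisons with the intronic sequence, were added after the data had been seen.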

Additional observations from a re-analysis of the deposited data

How the results depend on the processing

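Of 80 alternative values for the number of members and the shares and medians that describe them, 62 stayed within 1.5 times the reported number of members or within the 95% interval of the reported share or median, and 18 did not. An inner limit 500 bp farther out left 291 members, with 13.7% of candidates in the IDR list, and an outer limit of 1000 bp left 280, with 17.6%. The stronger 50% of the IDR list held 296 members, with a median signal of 242, an IDR summit of that shorter list at 16.6% of nearest TSSs and the leading word in 10.5% of windows. With protein-coding transcripts only, the nearest TSS belonged to the host in 91.1%. A match within 50 or 200 bp gave 80.9% or 99.3% in both replicates, and a promoter window of 250 bp gave an IDR summit at 13.5% of nearest TSSs. Windows of 30 or 100 bp either side of the summit had a median of 29.5% or 33.8% G and C and held the word in 5.25% or 11.9%, and with words of 7 bases the share was 14.9%. Without windows mostly masked as repeats, an alternative chosen after seeing the data like that of 1 entry per identical interval, G and C was 32.2%.

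Taking the list of 1 replicate alone gave 570 to 596 members, 84.6 to 86.3% with a host TSS nearest, 81.9 to 83.1% in intron 1, an IDR summit at 21.0 to 24.0% of nearest TSSs, 30.7 to 31.7% G and C and the word in 7.72 to 8.60%. No paired analysis was possible because the samples form 1 group and no test was run. Signal values have no replicate error, the depth in reads is unknown, and replicate 2 held a round 30000 candidates, which may be a limit of the authors' list.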
